A study of Mus musculus with 6 samples.

Results

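The EGR, NR4A and IER early genes are a set of 10 genes chosen by symbol, Egr1, Egr2, Egr3, Nr4a1, Nr4a2, Nr4a3, Ier2, Ier3, Ier5 and Btg2, and each matched 1 of the 21955 gene identifiers in the count files. They were read in RNA of neutrophils taken from the dura, the tough outermost covering of the brain, in wild-type mice. All 6 libraries were made after the mice had been exposed to a social threat, and 3 carry the label female and 3 the label male. No library of unexposed mice was analysed here, so the data show how the early genes differ between the label groups after exposure and not what exposure did to them. The labels used here give no age, do not say whether a library is 1 mouse or a pool, and do not say that libraries came from separate mice, and p-values here speak only to the scatter among the 6 libraries, part or all of which may be technical.

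Early genes are transcribed within minutes of a stimulus without new protein synthesis, because the factors that switch them on already sit in the cell. EGR proteins are zinc-finger transcription factors whose genes respond to the ERK kinases through serum response factor and its ELK partners, and NR4A proteins are nuclear receptors that act without a known hormone ligand and whose genes respond to cyclic AMP and calcium through CREB. IER2, IER3 and IER5 are proteins named for their fast induction, and BTG2 slows cell division and brings the CCR4-NOT deadenylase to mRNAs. In leukocytes these genes report recent signalling.

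The promoters of the NR4A genes, and of Egr2 and Btg2 for comparison, are shown because they hold the CREB and serum response factor letters through which such genes are known to be induced. They are the bases before RefSeq start sites on build GRCm38.p6, written 5′ to 3′ on the strand of the gene, for Nr4a1 at chr15:101266596-101266845 (plus strand), Nr4a2 at chr2:57124004-57124253 (minus strand), Nr4a3 at chr4:48045055-48045152 (plus strand), Egr2 at chr10:67537619-67537868 (plus strand) and Btg2 at chr1:134079156-134079405 (minus strand). Capitals mark TGACG or its reverse complement CGTCA, the core of the cyclic AMP response element, and in Egr2 also the CArG box, the serum response factor motif. Nr4a3 is cut where an exon of the GENCODE annotation begins.
Nr4a1: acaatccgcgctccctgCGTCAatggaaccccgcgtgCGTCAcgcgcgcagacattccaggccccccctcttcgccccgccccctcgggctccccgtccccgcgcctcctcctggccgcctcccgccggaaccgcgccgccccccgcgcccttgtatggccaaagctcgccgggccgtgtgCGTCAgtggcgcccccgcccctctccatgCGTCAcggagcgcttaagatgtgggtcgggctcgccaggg
Nr4a2: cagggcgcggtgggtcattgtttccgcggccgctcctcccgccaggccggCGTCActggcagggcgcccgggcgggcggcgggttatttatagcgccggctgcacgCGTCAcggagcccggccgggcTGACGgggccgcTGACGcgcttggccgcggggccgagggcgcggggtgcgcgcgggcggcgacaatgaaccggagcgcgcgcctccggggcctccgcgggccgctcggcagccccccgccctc
Nr4a3: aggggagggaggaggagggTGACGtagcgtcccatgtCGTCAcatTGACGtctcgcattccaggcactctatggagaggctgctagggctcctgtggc
Egr2: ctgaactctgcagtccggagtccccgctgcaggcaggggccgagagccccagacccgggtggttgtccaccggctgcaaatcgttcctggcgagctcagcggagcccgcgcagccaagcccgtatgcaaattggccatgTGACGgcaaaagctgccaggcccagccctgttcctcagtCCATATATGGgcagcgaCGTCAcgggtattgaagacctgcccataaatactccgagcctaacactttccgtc
Btg2: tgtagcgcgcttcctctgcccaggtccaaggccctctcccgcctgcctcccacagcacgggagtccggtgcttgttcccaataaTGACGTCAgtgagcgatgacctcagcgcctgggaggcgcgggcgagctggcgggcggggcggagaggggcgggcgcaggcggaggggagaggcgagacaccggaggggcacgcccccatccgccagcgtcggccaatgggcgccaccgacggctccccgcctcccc

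Each of the 3 NR4A genes held 4 matches to TGACG, counted on both strands, in the 250 bases before its start. In Nr4a1 they began at bases -233, -213, -69 and -40 from the start, in Nr4a2 at -200, -144, -123 and -111, and in Nr4a3 at -231, -213, -205 and -147, the last of which lies past the printed bases. Of all 32851 promoter windows in the table, 17.8% held at least 1 such match and 0.137% held 4 or more, and of the 12035 windows of genes tested here 26.3% and 0.316% did. The threshold of 4 was set after the NR4A matches were seen. The NR4A windows were also rich in G and C, at 74.4% in Nr4a1, 80.0% in Nr4a2 and 63.6% in Nr4a3. The median was 52.4% over all windows and 59.6% over those of genes tested, and the shares above were not adjusted for this. Egr2 has 5 RefSeq starts in the table, and at the start shown it held 2 TGACG matches and, between bases -72 and -63, a CArG box, which 1.47% of all windows and 1.17% of those of genes tested held. Of its other starts, that at chr10:67535499 held neither motif, that at chr10:67537566 held a CArG box but no TGACG, and the rest held both. The full palindrome TGACGTCA, found in 1.55% of all windows and 2.53% of those of genes tested, was present in Btg2 from base -166 to -159 and in no other member window. It accounts for both TGACG matches of that gene, which overlap. The windows of Ier3 and Ier5 held none of these 3 motifs. None of the 11 member windows held ACTTCCGG (an ETS site), GCGTGGGCG (an EGR site) or AAAGGTCA (an NR4A site), and TATAAA was found once, in Nr4a2 on the minus strand of the window. Egr1, Egr3 and Ier2 have no window in the table. A match describes letters, and binding was not measured.

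Each library held between 17098026 and 20778410 counts over genes, of which the 10 early genes together took 36826 to 42939 counts in the libraries labelled female and 43207 to 44754 in those labelled male. The label female goes against the data: the Y-linked genes Ddx3y, Eif2s3y, Kdm5d and Uty summed to 312 to 328 CPM (counts scaled to a library size of 1e6, after TMM normalization) in the libraries labelled female, overlapping the 307 to 318 CPM in those labelled male (two-sided exact permutation test, p = 0.3, with 0.1 as the smallest value 3 against 3 can give). Groups are therefore called by their labels, and every direction below compares label groups without establishing the sex of the mice. The neutrophil genes S100a9 and Ngp stood high in both groups, at means of 19052 and 18028 CPM in the libraries labelled female, against 15660 and 16602 CPM in those labelled male. Changes are log2 of labelled female over labelled male from edgeR's quasi-likelihood test, and a gene passed at a Benjamini-Hochberg adjusted p under 0.05 over the 11903 genes tested.

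Labelled female libraries held less of most early genes. Of the 10, all of which passed the filter on low counts, 7 fell and 3 did not pass. None rose by edgeR or DESeq2, also at an unadjusted p under 0.05, where 9 were lower, against 13.3% of all genes lower and 14.3% higher at that threshold. The genes that fell were Egr1, Egr3, Nr4a1, Nr4a2, Nr4a3, Ier3 and Ier5. Among all genes tested 6.62% fell and 7.29% rose. The median log2 change was -0.47 over the 10 early genes and 0.002 over all genes tested. In 8 of the 10 every library labelled female lay below every library labelled male, as was the case in 15.0% of all genes tested, and in none was every one above, against 15.9% of all genes. Summed over the 10 genes, the level was 1948, 1965 and 2130 CPM in the libraries labelled female, against 2528, 2511 and 2574 CPM in those labelled male. In RNA of bulk sorted cells, fewer cells of a type that expresses a gene and less of its RNA per cell cannot be told apart.

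**Figure D1:**
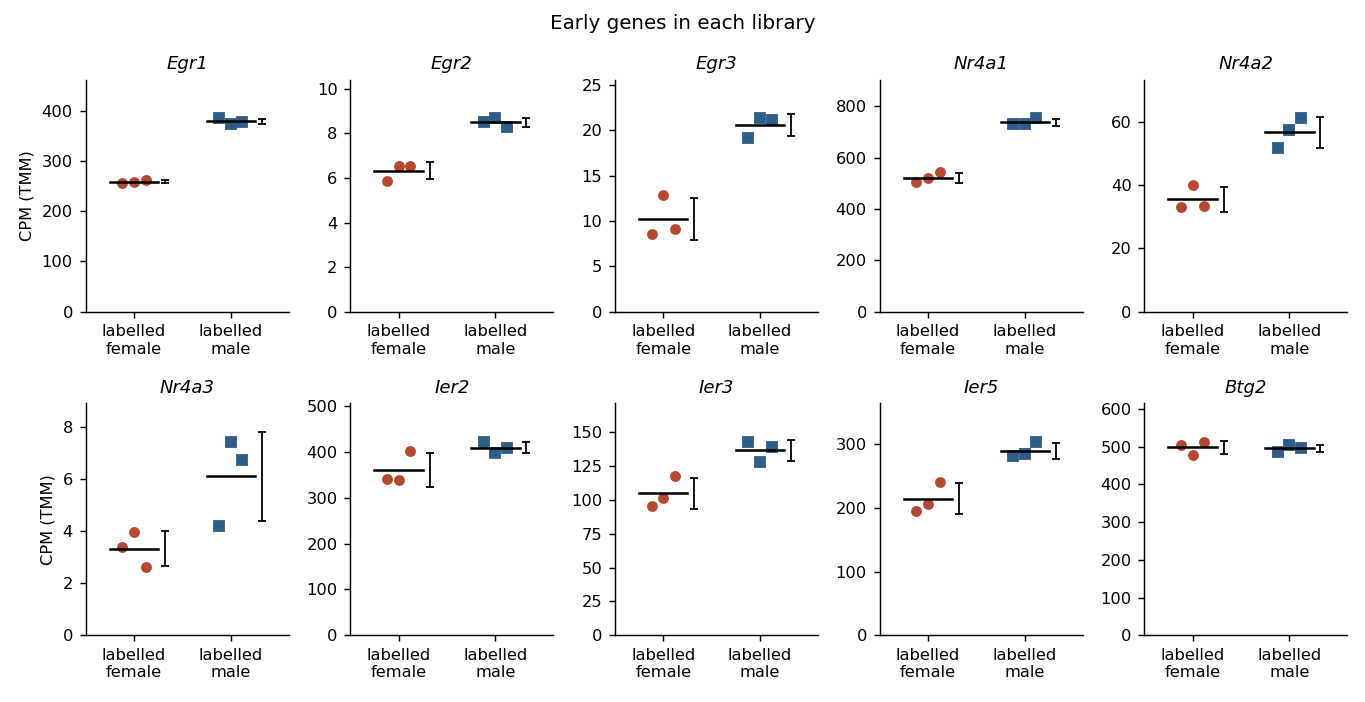
CPM after TMM normalization (vertical axes, from 0) of the 10 early genes in each library, labelled female (circles) and labelled male (squares); the line is the mean and the bar 1 SD of 3 libraries. The groups are apart in 8 panels, from Egr1 (256 to 262 CPM labelled female, against 373 to 384 CPM labelled male) to Ier5 (195 to 242 CPM labelled female, against 281 to 303 CPM labelled male), and overlap in Ier2 and Btg2.

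Egr1, an activator of growth and inflammatory genes, had 256, 257 and 262 CPM in the libraries labelled female, against 384, 373 and 377 CPM in those labelled male. The 3 libraries of each group lay within a few percent of each other and far from the other group. It fell 1.46-fold (log2 -0.55, SE 0.054, adjusted p = 4.58e-07), and 58 of the genes tested had a smaller p. Egr3, a paralog known in lymphocytes as a brake on activation, had 8.62, 12.9 and 9.13 CPM in the libraries labelled female, against 19.1, 21.3 and 21.2 CPM in those labelled male. Replicate 2 labelled female was the highest of its group and still below all 3 libraries labelled male. Egr3 fell 2.01-fold (log2 -1.01, SE 0.14, adjusted p = 2.61e-05), the largest change of the 10 early genes except without replicate 1 labelled male, where Nr4a3 was at log2 -1.09 and Egr3 at -1.06. Of all genes tested 116 had a lower change. Its level rests on 163 to 374 counts per library. Egr2, which acts with Egr3 in lymphocytes and directs myelination in Schwann cells, had 5.87, 6.55 and 6.55 CPM in the libraries labelled female, against 8.53, 8.67 and 8.28 CPM in those labelled male. The groups did not overlap, yet with 111 to 152 counts per library the change did not pass the test (log2 -0.42, 95% interval -0.73 to -0.11, adjusted p = 0.062), nor under any alternative (adjusted p 0.0568 to 0.197).

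The 3 NR4A genes all fell, in the reported fit the only one of the 3 families in the set with every member past the test. The 3 IER genes all passed as well with no filter (Ier2 adjusted p = 0.0419) and with the replicate number as a block (Ier2 adjusted p = 0.034). They also did with a minimum of 10 CPM in 3 libraries (Ier2 adjusted p = 0.0442), where Nr4a3 was not tested. So did they without replicate 3 labelled female (Ier2 adjusted p = 5.87e-05). Nr4a1 (Nur77), which is induced by antigen receptor signals and is needed in mice for the patrolling subset of monocytes, had 504, 520.2 and 543 CPM in the libraries labelled female, against 730.1, 730.0 and 753 CPM in those labelled male. The groups were apart by more than either of them spread, and the gene fell 1.41-fold (log2 -0.50, SE 0.056, adjusted p = 2.33e-06). Nr4a2 (Nurr1), known for its part in dopamine neurons and as a repressor of inflammatory genes in microglia, had 32.9, 39.9 and 33.4 CPM in the libraries labelled female, against 51.5, 57.2 and 61.0 CPM in those labelled male. Nr4a2 fell as well (log2 -0.67, SE 0.086, adjusted p = 1.37e-05). Replicate 2 labelled female stood above the other 2 of its group in Nr4a2, as it did in Egr3. Nr4a3 (Nor1), a close relative of Nr4a1 that is induced by many of the same signals, had 3.39, 3.98 and 2.63 CPM in the libraries labelled female, against 4.18, 7.41 and 6.73 CPM in those labelled male. Replicate 1 labelled male was close to the libraries labelled female, at 74 counts, where those held 53 to 79. Nr4a3 fell 1.83-fold (log2 -0.87, SE 0.23, adjusted p = 0.0143), a call lost without replicate 2 or replicate 3 labelled male (log2 -0.71, adjusted p = 0.0983, and log2 -0.80, adjusted p = 0.0748).

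Of the 3 IER genes 2 fell, with log2 changes from -0.18 to -0.44 over the 3. Ier5, a regulator of protein phosphatase 2A and heat shock factor 1, had 195, 206 and 242 CPM in the libraries labelled female, against 281, 285 and 303 CPM in those labelled male, and fell 1.35-fold (log2 -0.44, SE 0.07, adjusted p = 0.000204). Ier3 (IEX-1), which modulates cell death and ERK signalling, had 95.1, 101 and 117 CPM in the libraries labelled female, against 142, 128 and 138 CPM in those labelled male, and fell 1.30-fold (log2 -0.38, SE 0.073, adjusted p = 0.00117). The groups did not overlap in either gene, and in both replicate 3 labelled female was the highest of its group. Ier2, a nuclear protein linked to cell movement, had 341, 338 and 402 CPM in the libraries labelled female, against 421, 396 and 409 CPM in those labelled male. Here replicate 3 labelled female lay inside the range of the libraries labelled male, and Ier2 did not pass the test (log2 -0.18, SE 0.066, adjusted p = 0.0725). Without that library it passed (log2 -0.27, adjusted p = 5.87e-05).

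Btg2 had 505, 479 and 512 CPM in the libraries labelled female, against 486, 504 and 496 CPM in those labelled male. The groups overlapped fully, and the log2 change was 0.01 with a 95% interval from -0.10 to 0.13 (adjusted p = 0.923), which leaves out changes of the size seen in the 7 genes that fell. Its sign turned with upper-quartile factors (-0.0034). Among those 7 the change nearest to 0 was that of Ier3, with a 95% interval from -0.53 to -0.23.

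**Figure D2:**
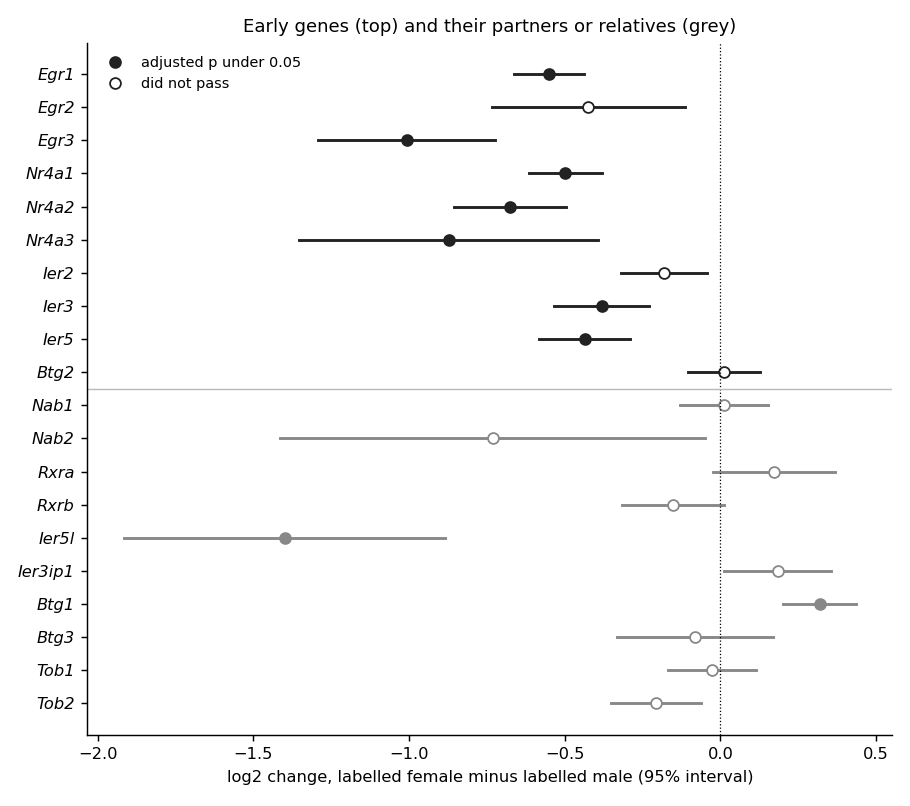
Log2 change, labelled female minus labelled male (horizontal axis), with 95% intervals over 6 libraries, of the 10 early genes (black) and of their tested partners and relatives (grey); filled points passed at an adjusted p under 0.05. The intervals of Egr1, Egr3, the 3 NR4A genes, Ier3 and Ier5 lie below 0, and that of Btg2 spans it.

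Partners and relatives of the early genes were taken from short lists. Ier5l and Btg1 passed and the others tested did not, where 13.9% of all genes tested passed in either direction. Of the EGR corepressors, Nab1 had 86.3 ± 7.15 CPM in the libraries labelled female, against 85.7 ± 1.71 CPM in those labelled male (SD, n = 3 each), with an interval of the log2 change from -0.13 to 0.15. Nab2, itself a known EGR target, had 0.794, 2.57 and 2.23 CPM in the libraries labelled female, against 3.50, 2.45 and 3.40 CPM in those labelled male (log2 -0.73, adjusted p = 0.151). The counts behind it were 15 to 62 per library, and the groups overlapped. Its log2 change was -0.37 without replicate 1 labelled female and -1.03 without replicate 2 labelled female. The retinoid X receptors, which pair with Nr4a1 and Nr4a2, did not pass either (Rxra log2 0.17, adjusted p = 0.244, and Rxrb log2 -0.15, adjusted p = 0.216). Egr4, Wt1, Rxrg and Btg4 were too low to test, with at most 3 counts in any library.

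Ier5l, a relative of Ier5, fell 2.64-fold, a larger change than any of the 10 early genes, with 1.64, 1.76 and 3.12 CPM in the libraries labelled female, against 5.82, 5.08 and 6.43 CPM in those labelled male (log2 -1.40, SE 0.25, adjusted p = 0.000544). It is a low gene, with 31 to 108 counts per library, and the groups did not overlap. Btg1, the closest relative of Btg2 in this list and like it a growth brake, rose 1.25-fold, with 896, 909 and 967 CPM in the libraries labelled female, against 749, 730.4 and 745 CPM in those labelled male (log2 0.32, SE 0.056, adjusted p = 0.000521). Tob2 was at log2 -0.21 (adjusted p = 0.0514, and 0.0327 to 0.191 under the alternatives). Btg3 (log2 -0.08), Tob1 (-0.03) and Ier3ip1, a protein of the secretory pathway named for binding IER3 (0.18), did not pass.

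Levels can be compared between genes only per length, here CPM per kilobase of merged exons in the GENCODE annotation. The order in all 6 libraries together, from high to low, was Ier2, Btg2, Nr4a1, Ier3, Ier5, Egr1, Nr4a2, Egr3, Egr2 and Nr4a3, from 253 CPM per kb for Ier2 to 0.788 CPM per kb for Nr4a3. Every gene but Btg2 stood above the next in every library, though Ier5 barely so over Egr1 in replicate 1 labelled male (85.72 CPM per kb each). Btg2 and Nr4a1 traded places. Btg2 had 182 ± 6.34 CPM per kb against 149 ± 5.58 CPM per kb for Nr4a1 in the libraries labelled female, while Nr4a1 had 210.2 ± 3.76 CPM per kb against 181 ± 3.31 CPM per kb for Btg2 in those labelled male (SD, n = 3 each).

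**Figure D3:**
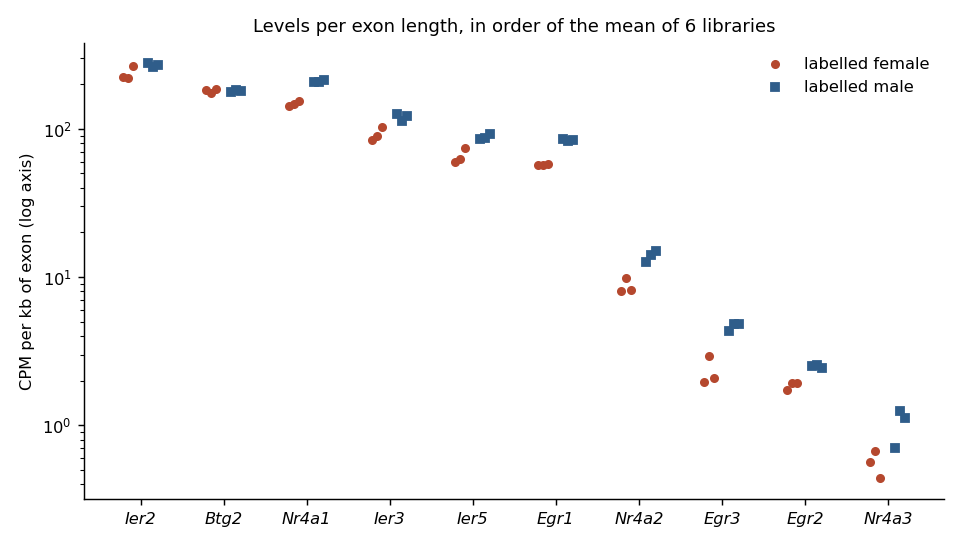
CPM per kb of exon (log axis) of the 10 early genes in each library, labelled female (circles, left) and labelled male (squares, right), ordered by the mean of all 6. Egr1 and Nr4a1 stand well above their paralogs, and only Btg2 and Nr4a1 change places between the groups.

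Within each family 1 gene made up most of the transcripts, Egr1, Nr4a1 or Ier2. Per length, Egr1 took 93.2 ± 0.926% of EGR transcripts in the libraries labelled female, against 92.2 ± 0.385% in those labelled male (SD, n = 3 each). Nr4a1 took 94.1 ± 0.672% of NR4A transcripts in the libraries labelled female, against 93.4 ± 0.516% in those labelled male. The groups overlapped in both shares. Egr3 took 3.75 ± 0.833% in the libraries labelled female, against 5.10 ± 0.354% in those labelled male, with overlapping groups, and Egr2 took 3.01 ± 0.147% in the libraries labelled female, against 2.73 ± 0.0761% in those labelled male, without overlap. Ier2, the member of its family that did not pass, took 60.0 ± 0.852% of the 3 IER genes in the libraries labelled female, against 56.3 ± 0.625% in those labelled male, and these groups did not overlap. The shares of Ier3 (23.4 ± 0.537% labelled female, against 25.2 ± 0.622% labelled male) and Ier5 (16.6 ± 0.323% labelled female, against 18.5 ± 0.852% labelled male) were lower in the libraries labelled female without overlap. These shares were not tested.

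The early genes sit on 9 chromosomes in the GENCODE annotation, with Ier5 and Btg2 both on chromosome 1. Egr1 is on chromosome 18, Egr2 on 10, Egr3 on 14, Nr4a1 on 15, Nr4a2 on 2, Nr4a3 on 4, Ier2 on 8 and Ier3 on 17. Most are short genes. Their median span was 5.29 kb, against 23.6 kb over the 11885 tested genes with a span in that annotation. Ier3 spans 1.24 kb and Ier2 1.52 kb, shorter than all but 0.934% and 1.44% of tested genes, while Nr4a3 spans 41.3 kb. Egr3 spans 5.41 kb and Btg2 3.95 kb.

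**Figure D4:**
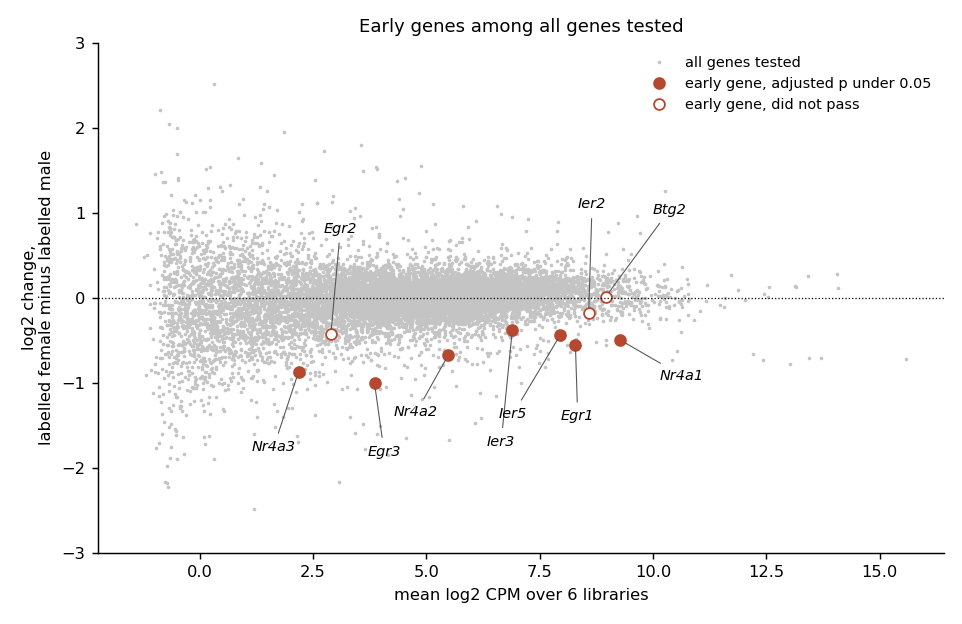
Log2 change, labelled female minus labelled male (vertical axis), against mean log2 CPM over 6 libraries (horizontal axis) for all 11903 genes tested, with the 10 early genes marked and filled where the adjusted p was under 0.05. The 7 that fell lie between -0.38 and -1.01 over the whole range of levels, and Btg2 lies at 0.01.

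Genes with the pattern most like each early gene were found by the root mean square difference of centred log2 CPM over the 6 libraries, compared with 11902 other genes, as a description. Nearest to Egr1 were Daxx, a histone chaperone, at 0.02, Cited2, a regulator of CBP and p300 binding, at 0.027, and Nr4a1 at 0.04. Egr1's own pattern had a size of 0.28 on that scale. Nr4a1 was nearest to Oas3, an interferon-induced antiviral enzyme, at 0.023, followed by Ppp1r15a and Dusp10. Nearest to Egr3 were Cxcr5, the follicle-homing receptor of B cells, at 0.058, then Apbb1 and Cd83, a marker of mature dendritic cells and activated B cells. Nearest to Nr4a2 were H2-Eb1, an MHC class II chain, at 0.042, Fcmr, the IgM receptor of B cells, at 0.053, and Csrnp2 at 0.055. For Ier5 they were the MHC gene H2-Q4 at 0.036, Spib, a transcription factor of B cells and plasmacytoid dendritic cells, at 0.04, and Rgcc at 0.041. For Egr2 the nearest were Nmral1, Itga5 and Tec, for Nr4a3 Cpne7, Shcbp1l and Rrad, for Ier2 Stub1, Atf4 and Ankrd54, for Ier3 Rilpl2, Adamts10 and Spns3, and for Btg2, which hardly varied, Hspa14, Acsl5 and Ints12. With only 6 libraries, genes that differ between the groups by a like amount can come out near each other.

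Transcripts of some other leukocytes moved with the same groups. Each count of markers, here and in the next paragraph, stands beside 6.62% of all genes tested that fell and 7.29% that rose. At an unadjusted p under 0.05 these shares were 13.3% and 14.3%. Of 11 B cell markers tested 8 fell, and their summed level was 178 to 247 CPM in the libraries labelled female, against 296 to 359 CPM in those labelled male. Of 11 dendritic cell markers tested 8 fell, with a summed level of 285 to 291 CPM in the libraries labelled female, against 427 to 442 CPM in those labelled male. None rose in either list by edgeR, also at an unadjusted p under 0.05, and no marker of either list was at 0 in any library. Siglech, a receptor of plasmacytoid dendritic cells, had 91.8 ± 5.90 CPM in the libraries labelled female, against 142 ± 5.93 CPM in those labelled male (SD, n = 3 each).

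Of 13 neutrophil markers 10 rose and none fell by edgeR, also at an unadjusted p under 0.05, with a summed level of 60802 to 78274 CPM in the libraries labelled female, against 54180 to 59823 CPM in those labelled male. Of 8 erythroid markers 5 rose, all 8 at an unadjusted p under 0.05, with 48.9 to 79.1 CPM in the libraries labelled female, against 28.6 to 34.1 CPM in those labelled male. Among these markers Hba-a2 was at 0 in at least 1 library. Of 14 macrophage and monocyte markers 2 rose and 2 fell, with 2482 to 2527 CPM in the libraries labelled female, against 2280 to 2346 CPM in those labelled male, and none of them was at 0 in any library. Much of that sum was Ccr2, which rose (means of 879 CPM labelled female, against 613 CPM labelled male), and Ly6c2, which did not pass (1126 CPM labelled female, against 1160 CPM labelled male). Of 7 stromal and endothelial markers tested 2 fell, with 58.1 to 70.1 CPM in the libraries labelled female, against 78.5 to 84.3 CPM in those labelled male, and Lum, Pdgfra and Emcn were at 0 in at least 1 library. The summed T and NK cell markers (155 to 188 CPM in the libraries labelled female, against 165 to 193 CPM in those labelled male, 1 of 12 fell) overlapped between groups. So did the mast cell, basophil and eosinophil markers, of which none of 7 passed by edgeR and 3 had an unadjusted p under 0.05, with 290 to 312 CPM in the libraries labelled female, against 300 to 331 CPM in those labelled male, and Tpsb2 and Mcpt4 at 0 in every library. Mitochondrially encoded transcripts made up 6.42 to 8.49% of the libraries labelled female, against 10.7 to 13.1% of those labelled male. The part of these shifts in the early gene results was not tested.

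Other genes of the pathway were counted in 6 further lists. Each count of genes that fell or rose stands beside 6.62% of all genes tested that fell and 7.29% that rose. Of 12 AP-1 factors, which are induced beside EGR and NR4A genes and bind DNA as FOS and JUN pairs, 6 fell and 1 rose, with a median log2 change of -0.29. Fosb fell 1.55-fold to 1196 ± 20.9 CPM in the libraries labelled female, against 1848 ± 26.5 CPM in the libraries labelled male (adjusted p = 1.04e-07), Atf3 fell 1.47-fold, and Jun fell 1.33-fold. Junb fell 1.17-fold, a call that held only with every library or without replicate 3 labelled female or replicate 2 labelled male (adjusted p up to 0.0881 without another). Without replicate 1 labelled male 3 AP-1 factors fell. Of 29 other primary response genes 13 fell and 3 rose, with a median of -0.17. Gadd45b, a stress-induced regulator of growth arrest, fell 2.67-fold to 45.5 ± 3.65 CPM in the libraries labelled female, against 121 ± 9.06 CPM in those labelled male (adjusted p = 7.22e-11). Klf4 fell 1.41-fold, and Trib1 rose 1.22-fold (adjusted p = 0.00586). Klf2 fell too (log2 -0.24), a call lost without any single library but replicate 3 labelled female or replicate 2 labelled male (adjusted p 0.0937 to 0.115). Arc, which encodes a synaptic protein, had 0.626 ± 0.420 CPM in the libraries labelled female, against 1.95 ± 0.532 CPM in those labelled male, from 7 to 43 counts per library (adjusted p = 0.0123), a call lost without replicate 1 labelled female or replicate 3 labelled male (adjusted p = 0.0691 and 0.0902). Without replicate 1 labelled male 8 genes of this list fell.

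Of 13 feedback inhibitors of ERK signalling 3 fell, 5 with upper-quartile factors, with a median log2 change of -0.24. None rose in the reported fit or by DESeq2, but 1 rose with no filter, 1 with the replicate number as a block and 2 without replicate 3 labelled female. At an unadjusted p under 0.05, 5 were lower and 2 higher, against 13.3% and 14.3% of all genes. Dusp2, a nuclear phosphatase that turns ERK off, fell to 56.7 ± 4.90 CPM in the libraries labelled female, against 85.2 ± 3.85 CPM in those labelled male (log2 -0.59, adjusted p = 7.08e-06). Dusp1 fell less (log2 -0.24, adjusted p = 0.00517). Errfi1, an inhibitor of the EGF receptor, fell to 9.34 ± 0.785 CPM in the libraries labelled female, against 13.1 ± 3.14 CPM in those labelled male (log2 -0.49, adjusted p = 0.0382), a call lost with limma-voom (adjusted p = 0.0522) and without any single library but replicate 3 labelled female or replicate 3 labelled male (adjusted p 0.0529 to 0.262). Its log2 change was -0.28 without replicate 1 labelled male.

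Of 19 genes of the ERK and p38 cascade 4 rose, with a median log2 change of 0.09. None fell in the reported fit or by DESeq2, but 1 fell without replicate 3 labelled female. At an unadjusted p under 0.05, 8 were higher and 1 lower, against 14.3% and 13.3% of all genes. Braf rose 1.33-fold to 83.0 ± 6.18 CPM in the libraries labelled female, against 62.4 ± 4.07 CPM in those labelled male (adjusted p = 0.000449), and Nras rose 1.22-fold. Sos2 rose 1.22-fold, a call lost without replicate 1 labelled female or replicate 1 or 3 labelled male (adjusted p 0.0655 to 0.0964). Of 17 SRF, CREB and MEF2 factors and coactivators 1 rose and 1 fell, with a median of 0.001, close to the shares over all genes (7.29% rose and 6.62% fell). Creb1, the factor that binds the TGACG core, rose 1.17-fold (adjusted p = 0.0216), and its coactivator Crtc2 fell 1.19-fold (adjusted p = 0.0242). Both calls were lost without any single library but replicate 3 labelled female (adjusted p 0.0585 to 0.116 for Creb1 and 0.0541 to 0.126 for Crtc2). Of the 10 CCR4-NOT genes, the complex BTG2 recruits, Cnot3 fell 1.19-fold (adjusted p = 0.0218), a call lost without replicate 2 labelled female or replicate 1 or 3 labelled male (adjusted p 0.0598 to 0.142). The other 9 did not pass in the reported fit, where 3 were higher at an unadjusted p under 0.05, against 14.3% of all genes. However, 1 rose with no filter, 1 with the replicate number as a block and 2 without replicate 3 labelled female. Without that library 1439 of all genes rose, against 868 in the reported fit. Over the 110 tested genes of all 10 pathway lists 25 fell and 10 rose, where 6.62% of all genes tested fell and 7.29% rose.

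**Figure D5:**
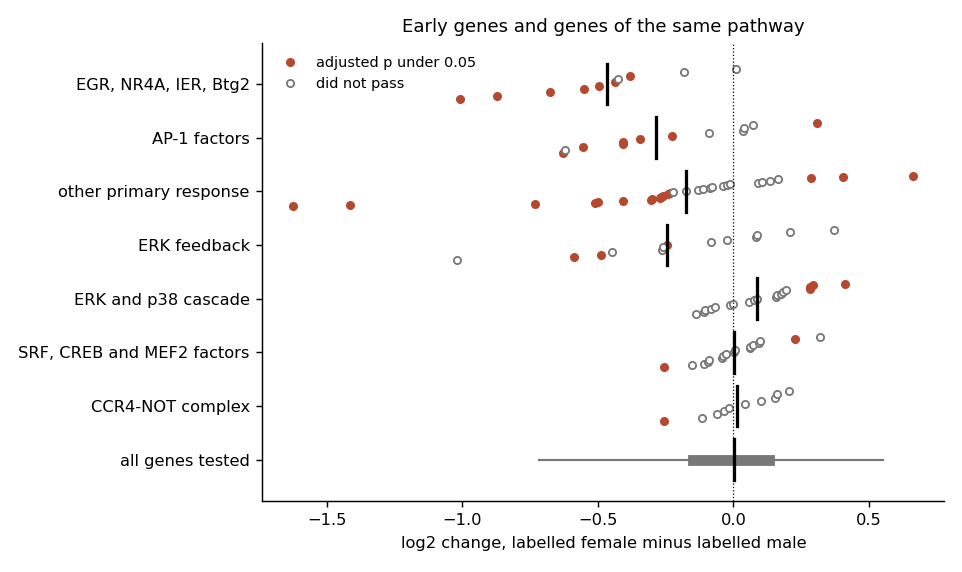
Log2 change, labelled female minus labelled male (horizontal axis), of each tested gene in the early gene set and 6 pathway lists; filled points passed at an adjusted p under 0.05, black bars are medians, and the bottom row gives the middle 50% (thick) and middle 95% (thin) of all 11903 genes tested. Medians are -0.47 for the early genes, -0.29 for AP-1 factors and 0.09 for the ERK and p38 cascade.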

How the data were processed

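Raw counts, as deposited by the authors, cover 21955 Ensembl identifiers in each of 6 libraries and are not normalized. Per the submitters' processing notes, cutadapt 1.15, HISAT2 2.0.5 and GRCm39 are named without roles. How reads were counted, and whether by strand, was not given in the sources used here, so overlapping and antisense genes cannot be told apart. Symbols, lengths and chromosomes came from GENCODE M21 (GRCm38), which named 21847 identifiers, and promoters from RefSeq (GRCm38.p6), which held 7 of the 10 genes.

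Counts were fitted in R 4.3.3 with edgeR 4.0.16 over the whole table (quasi-likelihood test, TMM, label group as the only term, filterByExpr at a minimum of 10 counts), and p-values were adjusted by Benjamini-Hochberg over 11903 genes. Each SE follows from the log2 change divided by the root of its F. The common biological coefficient of variation was 0.0696. No library was a copy of another, since chi-square values for same-group pairs were 4.10 to 16.5 for each degree of freedom. Precision depends on the total counts, 17098026 to 20778410 per library, and on the variation fitted between libraries. The fit was tested on simulated counts.

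The early genes, the lists and the tests were chosen with earlier results of these data known. The text names all 10 early genes, every gene of the EGR, NR4A, IER and BTG partner lists, of each other pathway list up to 3 called genes by level and 2 by change, markers with the highest CPM, and the 3 genes nearest to each early gene by pattern where their symbol is not a predicted-gene name. Some items under this rule are not reported here. Of 226 list entries 222 matched 1 identifier. The other settings tried were edgeR with upper-quartile or with DESeq2's size factors, limma-voom (limma 3.58.1), DESeq2 1.42.0, a minimum of 10 CPM in 3 libraries, fitting unfiltered counts, the replicate number as a block, the counts without mitochondrially encoded genes, and leaving out each library.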

Additional observations from a re-analysis of the deposited data

How the results depend on the processing

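The count of early genes that fell was 7 in the reported fit, 7 or 8 under the 8 alternatives that keep every library, and 6 to 8 when 1 library was left out, and none rose in any of them. Egr1, Egr3, Nr4a1, Nr4a2, Ier3 and Ier5 passed under all 14 alternatives, and Egr2 under none of those in which it was tested. Ier2 passed with no filter (adjusted p = 0.0419), with the filter of 10 CPM (0.0442), and with the replicate number as a block (0.034), where 8 early genes, 1007 genes higher and 914 lower were found. Ier2 passed as well without replicate 3 labelled female (adjusted p = 5.87e-05). No clear pairing by replicate number was seen. The correlations of same-numbered deviations were -0.039, 0.065 and 0.063, and not every library correlated best with its own number. Deviations from means of 3 libraries cannot exclude pairing. Leaving out 1 library gave 439 to 1439 higher and 467 to 1269 lower genes in all, the extremes without replicate 3 labelled male and without replicate 3 labelled female, and 8 to 17 higher and 14 to 30 lower pathway genes. Some small changes turned in sign without passing in either direction. Btg2 came to -0.0034 with upper-quartile factors, -0.0038 with the filter of 10 CPM and -0.0077 to 0.041 without 1 library. Nab1 came to -0.0029 and -0.0034 under the same pair of settings and -0.028 to 0.079 without 1 library, and Tob1 to -0.097 to 0.019 without 1 library. The causes were not tested. The median change of all genes stayed between -0.012 and 0.0057. The Y-linked ratio was 1.02 to 1.05 without 1 library.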
